A study of Mus musculus with 1536 samples.

Results

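The genes described are 9 growth factor receptor genes of the 53263 genes in the deposited table, taken as a named list of receptors: Ret, Gfra1, Gfra2, Ntrk2, Ntrk3, Met, Erbb4, Kit and Igf1r. All 9 were found in the table and had reads in at least 42 of its 999 cells. The cells were tdTomato-positive serotonin neurons from Sert-Cre;Ai14 mice of the C57BL/6J strain, 40 to 45 days old, in which Cre made in cells that use the serotonin transporter gene Sert (Slc6a4) turns on the red protein tdTomato. Every cell in either group carries the same alleles, there was no treatment. Single cells went into 96-well plates, and each gave 1 full-length Smart-seq2 library. The 2 groups are dissections. The pDR dissection took the principal dorsal raphe alone and gave 290 cells on 5 plates. The other took the principal and caudal dorsal raphe (cDR) and the median raphe (MR) together and gave 709 cells on 11 plates, and is called the combined dissection here. Its labels name the whole dorsal raphe, and the MR is known from the study's design. The labels tie no cell to an animal, and cells of several brains were sorted, and each dissection is therefore taken as 1 sample, without p-values. Plates, which are sorting and library units and not animals, give the only spread.

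The cells carried the defining genes of their labelled type. Tph2, the enzyme that starts serotonin synthesis in the brain, had a read in 999 of 999 cells and Slc6a4 in 997. The study describes these cells as Tph2-positive, and they were sorted by Sert-Cre labelling. The counts for these genes are therefore no independent check. The 6 serotonin neuron genes checked summed to over 1000 CPM (reads on a gene relative to all reads on genes of that cell) in 997 cells, and of the vesicular transporters of other glutamate and GABA neurons Slc17a7 had no read in any cell. Oligodendrocyte genes summed to over 1000 CPM in 9 cells, 7 of them in the combined dissection, and the sum was 24.7 CPM in the median cell. The counts of receptor genes given below for dissections and markers were the same without those 9 cells. Depth per cell was 96834 to 2780443 reads on genes, with a median of 755926 in the pDR dissection and 869546 in the combined one, so the higher shares found in the pDR dissection were found at the lower depth. Reads carry no molecular identifiers, and the intervals given (exact Clopper-Pearson, 95%) and the limits behind a count of 0 (3 counts of the total, which lies below the upper end of the exact interval) cover counting error only.

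Most of these genes encode receptor tyrosine kinases, which sit in the cell membrane and, when a growth factor joins a pair of them, phosphorylate each other and switch on the RAS to ERK, PI3-kinase and phospholipase pathways. RET is the kinase for the GDNF family of ligands, but it binds them only together with a lipid-anchored co-receptor, such as those encoded by Gfra1 (for GDNF) and Gfra2 (for neurturin). Gfra1 and Gfra2 are thus not kinases themselves. Ntrk2 and Ntrk3 encode the neurotrophin receptors TrkB, for BDNF, and TrkC. Met encodes the receptor of hepatocyte growth factor, Erbb4 a receptor of neuregulins, Kit the receptor of stem cell factor and Igf1r the receptor of the insulin-like growth factors. In serotonin neurons BDNF and TrkB are best known for their part in growth and maintenance of axons. Ntrk2 and Ntrk3 also make truncated forms without a kinase, and counts per gene do not separate these from the full-length forms.

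In GENCODE M21 on GRCm38, the build (mm10) the reads were aligned to, Ret lies at chr6:118151745-118197718 (- strand), Met on the same chromosome at chr6:17463800-17573980 (+ strand), Kit at chr5:75574916-75656722 (+ strand), Gfra1 at chr19:58235604-58455909 (- strand), Gfra2 at chr14:70890120-70979838 (+ strand), Ntrk2 at chr13:58806569-59133970 (+ strand), Ntrk3 at chr7:78175959-78738012 (- strand), Igf1r at chr7:67952827-68233668 (+ strand) and Erbb4 at chr1:68032186-69108059 (- strand). All are protein-coding, and values are reads on their exons. Reads were counted without regard to strand. An exon of another gene overlaps those of Gfra1 alone among the 9, where the antisense gene Gm16277 shares 416 of 5476 exonic bases and had a read in 2 cells. Of the markers used below, Zeb2 shares 653 exonic bases with the antisense gene Zeb2os, which had a read in 11 cells.

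The transcription start regions of Met, Gfra1 and Kit are shown because these 3 genes were called, with no overlap of plate means, between cells with and without Zeb2, a transcriptional repressor whose zinc fingers are known to bind the letters CACCTG. Each window runs from 250 bases before to 50 bases after a RefSeq transcription start in GRCm38.p6, and is printed 5′ to 3′ along the gene in lower case, with CACCTG or its reverse complement CAGGTG in capitals. The Met window is chr6:17463707-17464006 (+ strand), the Gfra1 window chr19:58455349-58455648 (- strand) and the Kit window chr5:75574737-75575036 (+ strand).
Met: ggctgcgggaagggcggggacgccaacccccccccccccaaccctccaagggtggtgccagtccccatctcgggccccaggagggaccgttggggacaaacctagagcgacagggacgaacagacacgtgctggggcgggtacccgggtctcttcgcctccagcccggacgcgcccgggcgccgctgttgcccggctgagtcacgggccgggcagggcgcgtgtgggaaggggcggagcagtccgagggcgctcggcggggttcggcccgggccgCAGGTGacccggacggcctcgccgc
Gfra1: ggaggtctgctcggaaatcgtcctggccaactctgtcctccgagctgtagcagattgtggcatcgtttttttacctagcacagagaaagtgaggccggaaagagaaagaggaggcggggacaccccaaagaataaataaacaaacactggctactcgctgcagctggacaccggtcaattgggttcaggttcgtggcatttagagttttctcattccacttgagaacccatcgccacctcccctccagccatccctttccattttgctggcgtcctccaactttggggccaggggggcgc
Kit: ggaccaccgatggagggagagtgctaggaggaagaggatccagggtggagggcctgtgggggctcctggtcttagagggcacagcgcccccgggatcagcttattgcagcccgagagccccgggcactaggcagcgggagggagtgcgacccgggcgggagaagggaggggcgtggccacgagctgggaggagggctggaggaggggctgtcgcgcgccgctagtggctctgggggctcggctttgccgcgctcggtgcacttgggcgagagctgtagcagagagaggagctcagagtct
CAGGTG was found 1 time in the Met window, downstream in its last 50 bases, and neither form of the letters in the Gfra1 or Kit window. Of all 32851 windows of 300 bases in the RefSeq set, 20.2% hold CACCTG on either strand, so its presence in 1 of 3 is a description of the letters only. Windows of Ntrk2, Erbb4 and Igf1r were also in the set and held no match. No window is given for Ret, Gfra2 and Ntrk3.

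Ntrk2, Ntrk3 and Gfra1 were found in nearly every serotonin neuron, Igf1r and Kit in most, and Ret, Erbb4, Met and Gfra2 in smaller sets. With at least 1 read counted as expressed, Ntrk2 was expressed in 997 of 999 cells (99.8%), Ntrk3 in 981 (98.2%) and Gfra1 in 896 (89.7%, 95% interval 87.6 to 91.5%). Igf1r was expressed in 764 cells (76.5%, 73.7 to 79.1%) and Kit in 547 (54.8%, 51.6 to 57.9%). Ret had a read in 337 cells (33.7%, 30.8 to 36.8%), Erbb4 in 154 (15.4%, 13.2 to 17.8%), Met in 118 (11.8%, 9.88 to 14.0%) and Gfra2 in 42 (4.20%, 3.05 to 5.64%). When 990 cells were thinned to 250000 reads each and the other 9, which were shallower, were left out, Igf1r was at 67.0% of cells, Ret at 31.1%, Erbb4 at 13.3% and Met at 10.7%. Among cells with a read, the median level was 28.1 CPM for Ret (25 reads), 54.1 CPM for Kit (47 reads) and 21.3 CPM for Met (19.5 reads), but 13.6 CPM for Igf1r (11 reads). Igf1r was therefore widespread and low, and 180 of its 764 cells had 1 to 4 reads.

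Compared per length, the order of levels was led by the co-receptor Gfra1. This order depends on the divisor, as merged exons span 30170 bases in Ntrk3, 19292 in Ntrk2 and 5476 in Gfra1. In undivided mean CPM, Ntrk2 (160) was above Gfra1 (150), and Ntrk3 (89.5) was above Kit (36.7) and Ret (20.1). Mean CPM divided by the length of the merged exons was 27.3 CPM per kilobase for Gfra1, 8.29 for Ntrk2, 4.11 for Kit, 2.97 for Ret, 2.97 for Ntrk3, 0.786 for Igf1r, 0.434 for Gfra2, 0.409 for Met and 0.333 for Erbb4. Per length, Gfra1 exceeded Ntrk2 in 16 of 16 plates, Ntrk2 exceeded Kit in 15 of 16 and Kit exceeded Ret in 13 of 16. Ret exceeded Ntrk3 in only 5 of 16 plates although their means were alike, because Ret varied from 0.0841 to 9.90 CPM per kilobase between plates and Ntrk3 from 2.01 to 4.31. Ntrk3 exceeded Igf1r in 16 of 16 plates. Gfra2, Met and Erbb4 could not be ordered, as each exceeded the next in 8 of 16 plates.

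Cells carried a median of 5 of the 9 genes, and no cell carried all 9 or none. At least 5 genes were expressed in 607 cells (60.8%), at least 7 in 51 and 8 in 5 cells. The share with at least 5 was 74.1% of pDR cells and 55.3% of cells of the combined dissection. In all there were 59 combinations. Gfra1, Ntrk2, Ntrk3 and Igf1r alone was the commonest, with 222 cells, followed by the same 4 genes with Kit in 171 cells and with Kit and Ret in 115 cells. The commonest combination without Gfra1 was that of Ntrk2, Ntrk3, Met, Kit and Igf1r, and all 58 of its cells were in the combined dissection. The 3 cells with a single receptor gene had 1760 to 5249 detected genes against a median of 9554, and 1 of them was among the cells rich in oligodendrocyte genes.

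Nearly all cells with Ret also had Gfra1, as did most cells without Ret. Of the 337 cells with the kinase gene Ret, 325 (96.4%, 93.9 to 98.1%) had its co-receptor gene Gfra1, against 86.3% of the 662 cells without Ret. In the pDR these shares were 99.3% and 98.6%, and in the combined dissection 94.3% and 82.8%. Gfra1 was the only co-receptor of the pair in 297 of the Ret cells, both were present in 28, Gfra2 alone in 0, and neither in 12. The reverse did not hold, since 571 cells had Gfra1 without Ret. Gfra2 was found only in cells that had Gfra1, 42 of 42, against 89.2% of cells without Gfra2 that had Gfra1. Of the 42, 28 (66.7%, 50.5 to 80.4%) had Ret, against 32.3% of cells without Gfra2. Within plates, mean Gfra1 was higher in Ret-positive than in Ret-negative cells in 13 of 14 plates with at least 5 cells of each kind (median log2 ratio of mean CPM plus 1 0.69).

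Erbb4 marked cells that were rich in Ret and Gfra1. All 154 Erbb4-positive cells had Gfra1, against 87.8% of cells without Erbb4. Of the 154, 116 (75.3%, 67.7 to 81.9%) had Ret, against 26.2% of cells without Erbb4. The same 116 cells were 34.4% of the Ret-positive cells. Within plates, Ret was higher in Erbb4-positive than in Erbb4-negative cells in 13 of 13 plates, with a median log2 ratio of 2.57 (1.10 to 3.59), and Gfra1 likewise in 13 of 13, with 1.31 (0.91 to 1.49). Of the 42 Gfra2-positive cells, 26 (61.9%) had Erbb4, against 13.4% of the other cells. The mean level of Kit was lower in Erbb4-positive cells in 12 of 13 plates (median log2 ratio -0.98). The share with Kit was 77.3% of Erbb4-positive and 66.1% of Erbb4-negative cells in the pDR, but 25.0% and 52.5% in the combined dissection.

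Met stood apart from these genes and overlapped with Kit. Kit was found in 111 of the 118 Met-positive cells (94.1%, 88.2 to 97.6%), against 49.5% of cells without Met. Gfra1 was found in only 32 of the 118 (27.1%, 19.3 to 36.1%), against 98.1% of cells without Met, and Ret in 13 (11.0%), against 36.8%. Erbb4 and Gfra2 were found in 0 of the 118, which allows shares of up to 2.54%. In 11 of 11 plates Gfra1 was lower and Ntrk2 higher in Met-positive cells, with median log2 ratios of -5.42 and 0.93.

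**Figure D1:**
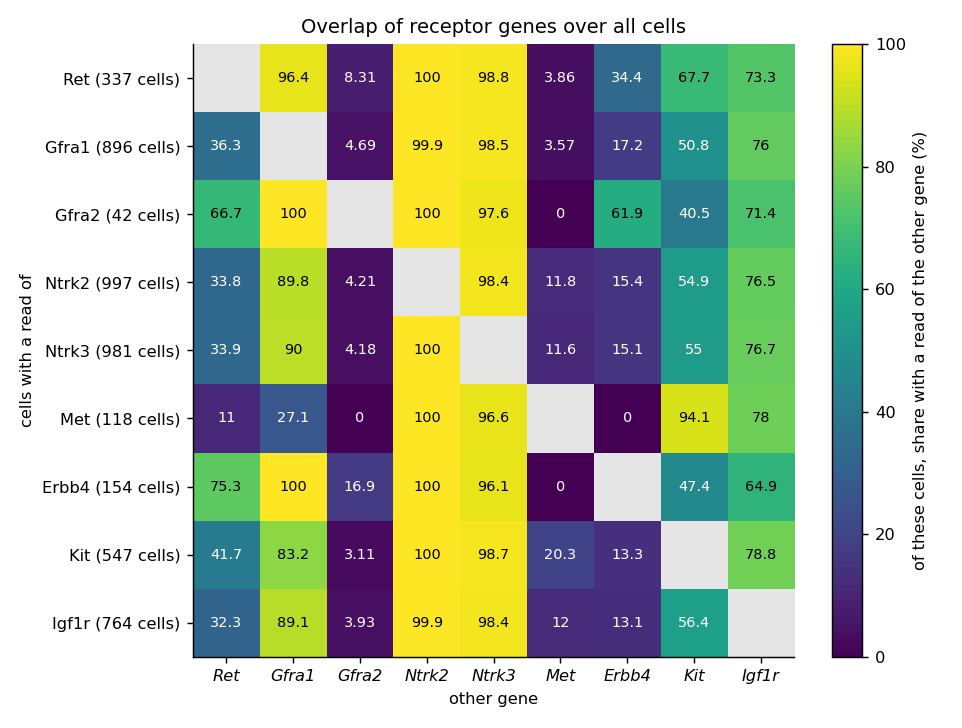
Share (%) of the cells with a read of the gene named in each row, with their number, that also had a read of the gene in each column, over all 999 cells; the diagonal is empty. The Met row is low for Gfra1 (27.1%) and 0 for Gfra2 and Erbb4, whereas the Erbb4 row is high for Ret (75.3%) and Gfra1 (100%).

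Between the dissections, Ret was higher in the pDR and Met was all but limited to the combined dissection. The question here is which receptor genes distinguish the principal dorsal raphe from a sample that also holds the caudal dorsal and median raphe. For each gene the CPM was averaged within each plate and over plates, and a gene was called when (mean plus 1 CPM) differed by a ratio of at least 2 (log2 of 1). By this rule 1 of the 9 genes was called higher in the pDR and 1 lower, while 1.84% of the 25522 genes with a read in at least 3 cells were called higher and 1.1% lower. Among the 12834 genes that also had a mean of at least 1 CPM, as all 9 did, these were 3.39% and 2.12%.

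In the pDR plates SER12, SER13, SER25, SER39 and SER40 the mean level of Ret was 67.0, 24.4, 30.4, 42.0 and 29.5 CPM. The 11 plates of the combined dissection ranged from 0.568 to 20.9 CPM with a median of 10.2 CPM. Every pDR plate was thus above every combined plate, by 38.7 ± 17.1 against 10.3 ± 5.98 CPM (mean ± SD over 5 and 11 plates), a log2 ratio of 1.81. The share of cells with Ret was 49.7% (43.8 to 55.6%) in the pDR and 27.2% (24.0 to 30.7%) in the combined dissection. Plate SER12 was the highest of the pDR plates, and without any single plate Ret was still called.

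Met had reads in 1 of 290 pDR cells, on plate SER12 with 2 reads, and in 117 of 709 cells of the combined dissection (16.5%, 13.8 to 19.4%). Its level was 0.0455 CPM in plate SER12 and 0 in the other 4 pDR plates. In the combined plates it ran from 0.746 to 12.0 CPM with a median of 2.65 CPM, and each of them had Met-positive cells, from 5 to 31 a plate, with the most in plate SER48. The log2 ratio was -2.56 with 1 CPM added, which holds the ratio down for a gene so low. Over the pooled reads, 2699 against 2, the combined dissection was 564 times higher. The 2 reads lie in 1 cell and reads of the same cell are not independent counts, so no interval is given for this ratio.

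Gfra1, Ntrk3 and Kit were also higher in the pDR, by less than the ratio called. Plate means of Gfra1 were 163 to 220 CPM in the pDR and 78.9 to 162 CPM in the combined dissection, with no overlap (log2 ratio 0.54). Ntrk3 was at 112 to 130 CPM in the pDR and at 60.5 to 91.1 CPM in the combined dissection, again without overlap (0.62). Counted over the members, 3 of 9 genes (Ret, Gfra1 and Ntrk3) had all pDR plates above all combined plates and 1 (Met) all below, against 2.43% and 2.54% of the 25522 genes. Among genes with a mean of at least 1 CPM these shares were 4.18% and 4.92%. Kit was at 47.0 to 68.9 CPM in the pDR and 18.6 to 50.1 CPM in the combined dissection, so the plates overlapped. At a log2 ratio of 0.94 it lay just under the rule, and it was called in 3 of the 16 repeats that left out a plate (SER13, SER48 or SER56, highest 1.03). Ntrk2 (log2 ratio 0.21), Igf1r (0.18), Erbb4 (0.54) and Gfra2 (-0.09) had overlapping plates. Plate and dissection cannot be told apart in this design, and fewer cells with a gene and less of it per cell both lower a plate mean.

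**Figure D2:**
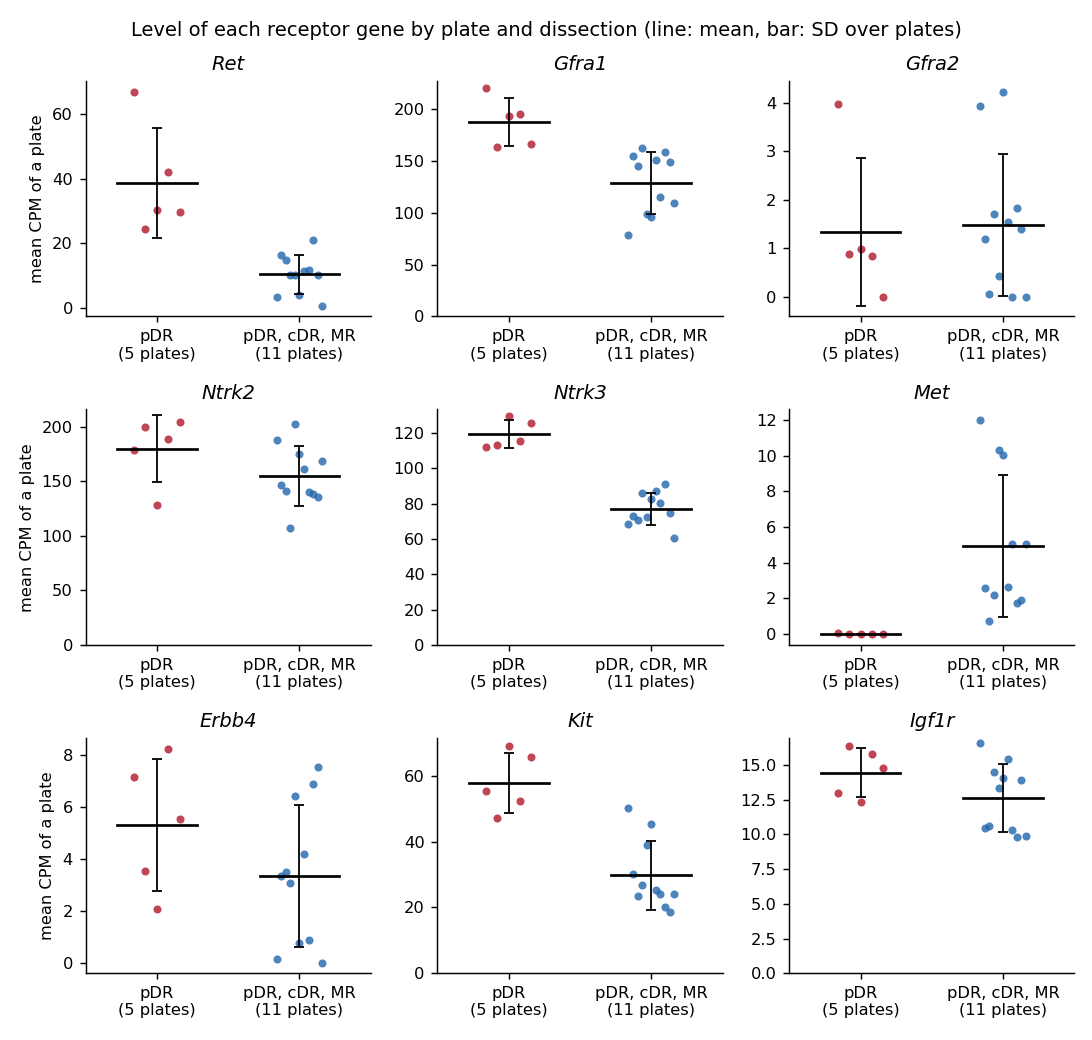
Mean CPM of each receptor gene in each plate (points), with the mean (line) and SD (bar) over the 5 pDR plates and the 11 plates of the pDR, cDR and MR dissection; each panel has its own linear axis. The plates do not overlap for Ret, Gfra1 and Ntrk3, which were higher in the pDR, nor for Met, which lay between 0 and 0.0455 CPM in all 5 pDR plates.

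The markers divide the cells further, and were unequally spread over the dissections. Trh, the gene of thyrotropin-releasing hormone, had a read in 138 cells, 98 of them pDR. Gad (Gad1 or Gad2, the enzymes that make GABA) had a read in 347 cells, 183 of them pDR. Slc17a8, a vesicular glutamate transporter, had a read in 649 cells, 131 of them pDR. Zeb2 was read in 150 cells and Irx2, an Iroquois homeobox gene, in 164, with 3 and 10 of these in the pDR. For this reason marker-positive and marker-negative cells were compared within a plate, wherever a plate held at least 5 of each. A receptor gene was called when the median over plates of the log2 ratio of mean CPM plus 1 was at least 1 in size and every plate had its sign. Median depth in positive and negative cells was 884326 and 869119 reads for Zeb2, 783036 and 840237 for Irx2 and 791928 and 741305 for Trh.

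**Figure D3:**
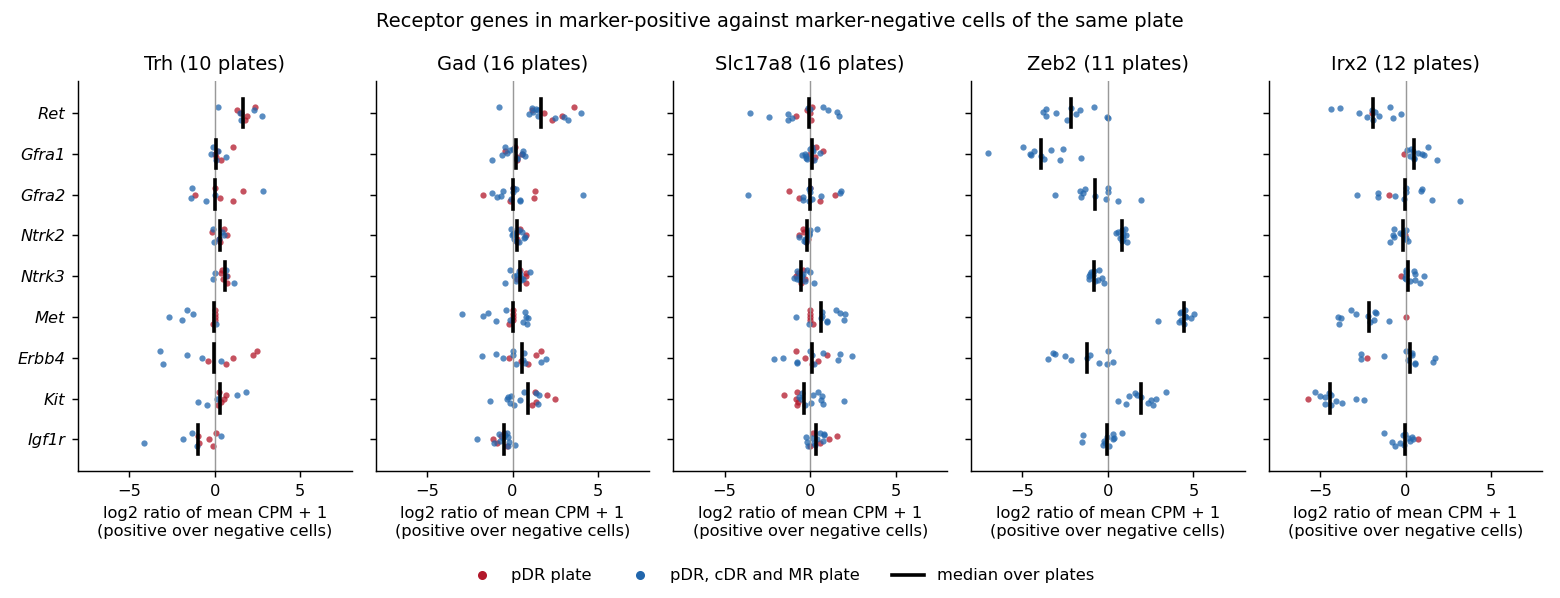
Log2 ratio of mean CPM plus 1 in marker-positive over marker-negative cells of the same plate, for the 9 receptor genes and 5 markers; each point is a plate, coloured by dissection, and the black bar is the median over plates. For Zeb2, all 11 plates lie above 0 for Met and Kit and below 0 for Gfra1 and Ret, and for Irx2 all 12 plates lie below 0 for Kit and Ret.

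Met and Kit were higher and Gfra1 lower in Zeb2-positive cells. All 11 plates that could be used were of the combined dissection, with 147 positive and 562 negative cells. Called higher were 2 of the 9 genes and lower also 2, against 0.748% and 1.79% of the 25522 genes (1.4% and 3.53% of those with a mean of at least 1 CPM). Plate means did not overlap between positive and negative cells for Met, Kit and Ntrk2, which were higher, and for Gfra1 and Ntrk3, which were lower. The same held for 0.678% and 1.3% of genes (1.31% and 2.36% of those with a mean of at least 1 CPM). The 6 astrocyte genes checked summed to a median of 24.1 CPM in Zeb2-positive and 5.26 CPM in Zeb2-negative cells, with plate means of 11.3 to 40.0 CPM against 10.1 to 122 CPM, higher in 6 of 11 plates. Over all 999 cells their mean sum was 22.7 CPM. Of this, 17.9 CPM came from Slc1a2 alone, which had a read in 571 cells. The part of the astrocyte genes in the result was not tested.

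Met, the hepatocyte growth factor receptor gene, had a mean in Zeb2-positive cells of 6.62 CPM in the lowest of the 11 plates, 20.7 CPM in the median and 31.3 CPM in the highest. In Zeb2-negative cells it was 0 in every plate. The share with Met was 117 of 147 positive cells (79.6%, 72.2 to 85.8%) and 0 of 562 negative cells, which allows a share of up to 0.534%. Over pooled reads Met was at 20.3 CPM in the positive cells, while 3 reads over all negative cells together would be 0.00594 CPM. Reads of the same cell are not independent counts, so no limit on the fold is drawn from these values. The only Met-positive cell without Zeb2 was that of the pDR.

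Gfra1 showed the reverse, with 0.353 to 51.8 CPM (median 11.3 CPM) in Zeb2-positive cells and 136 to 182 CPM (median 163 CPM) in Zeb2-negative cells of the same plates. The median log2 ratio was -3.89 (-7.00 to -1.58). It was expressed in 33.3% of positive cells (25.8 to 41.6%) and 99.6% of negative cells. Over both dissections, 99 of the 103 cells without Gfra1 had Zeb2, so that its absence was nearly limited to them. The split ran further with Met, as Gfra1 was found in 31 of the 117 cells with Zeb2 and Met (26.5%, 18.8 to 35.5%; mean 2.84 CPM) and in 20 of the 33 with Zeb2 and no Met (60.6%, 42.1 to 77.1%; mean 68.3 CPM).

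Kit ran from 38.1 to 87.5 CPM (median 73.7 CPM) in Zeb2-positive cells and from 6.86 to 25.7 CPM (median 15.8 CPM) in negative ones, a median log2 ratio of 1.93. It was expressed in 91.2% of positive cells (85.4 to 95.2%) and 38.1% of negative cells (34.0 to 42.2%). Ret was lower in 11 of 11 plates (median log2 ratio -2.18), and was expressed in 12.2% (7.42 to 18.7%) of positive against 31.1% (27.3 to 35.1%) of negative cells. The neurotrophin receptor genes differed in opposite directions without being called. Ntrk2 was higher in 11 of 11 plates, at 162 to 280 CPM against 99.8 to 157 CPM (0.84), and Ntrk3 lower in 11 of 11, at 41.4 to 63.8 CPM against 65.4 to 109 CPM (-0.79). Erbb4 was found in 2.04% of positive and 15.1% of negative cells, with 9 of 11 plates lower (-1.24). Igf1r, at 78.2% and 77.8% of cells, was higher in 5 plates and lower in 6.

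Irx2-positive cells had Gfra1, and few of them had Kit. There were 12 plates, 11 of them combined, with 160 positive and 634 negative cells. In positive cells the 6 serotonin neuron genes were lower in 11 of 12 plates (mean sum 18841 against 21326 CPM) and the astrocyte genes were higher in 3 of 12 (median 0.340 against 11.7 CPM), and their part in the result was not tested. Called lower were 2 of the 9 genes and higher 0, against 0.239% and 0.137% of the 25522 genes. Among genes with a mean of at least 1 CPM these shares were 0.468% and 0.257%. Kit, the stem cell factor receptor gene, was at 0 to 7.82 CPM (median 0.414 CPM) in Irx2-positive cells. In negative ones it was at 24.2 to 61.4 CPM (median 35.7 CPM). The plate means did not overlap, as for 0.125% of genes that were lower (0.203% of those with a mean of at least 1 CPM). The median log2 ratio was -4.42 (-5.69 to -2.42), and Kit was expressed in 8.75% of positive cells (4.87 to 14.2%) against 61.2% of negative cells (57.3 to 65.0%).

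Ret was at 0 to 10.4 CPM in Irx2-positive and 0.898 to 26.9 CPM in negative cells, lower in 12 of 12 plates (-1.92). With Zeb2-positive cells left out of the negative set, the median log2 ratio of Kit was -4.08 and that of Ret -2.56. Gfra1 was found in 160 of 160 positive cells and was higher in 11 of 12 plates (0.49), a median that came down to 0.21 without Zeb2-positive cells. Met was found in 0 of all 164 Irx2-positive cells, which allows up to 1.83%.

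Trh-positive cells had more Ret and, in more of the cells, Kit. The 10 plates, 5 of each dissection, held 125 positive and 521 negative cells. Only 1 of the 9 genes was called, Ret, which was higher, against 0.419% of the 25522 genes called higher and 0.478% lower. Among genes with a mean of at least 1 CPM these shares were 0.795% and 0.951%. The same astrocyte genes were lower in Trh-positive cells in 10 of 10 plates, with plate means of 0 to 13.2 CPM against 10.9 to 99.0 CPM, and their part here was not tested either. The mean of Ret in Trh-positive cells of the pDR plates was 108 CPM in SER12, 50.2 in SER13, 63.3 in SER25, 65.8 in SER39 and 81.2 in SER40. In Trh-negative cells of these plates it was 31.7, 13.1, 21.6, 26.6 and 15.0 CPM, so every pDR plate with its positive cells exceeded all of the negative sets. The 5 combined plates had 11.4 to 80.8 CPM in 5 or 6 positive cells each, which overlapped with the negative sets. All 10 plates were above 0, with a median log2 ratio of 1.62 (0.16 to 2.77), and Ret was expressed in 75.2% (66.7 to 82.5%) of positive and 32.1% (28.1 to 36.3%) of negative cells. Without Zeb2-positive and Irx2-positive cells the median was 1.59, but 7 plates were left and plate SER64, with 5 positive cells, fell below 0, so the rule was not met.

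Kit was expressed in 92.0% (85.8 to 96.1%) of Trh-positive and 47.2% (42.9 to 51.6%) of Trh-negative cells, with the share higher in 10 of 10 plates, while its mean level was higher in 8 of 10 (median log2 ratio 0.31).  Ntrk3 was higher in 9 of 10 plates (0.57). Igf1r was lower in 8 of 10 plates (-0.97), and its share, 58.4% (49.2 to 67.1%) against 79.5% (75.7 to 82.9%), was higher in 0 of 10 plates. Thinned to equal depth the shares of Igf1r were 46.3% and 69.8%. Erbb4 was higher in 4 of 5 pDR plates and lower in 4 of 5 combined plates, so its overall median of -0.02 joins unlike values.

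No receptor gene was called with Gad. In 16 plates with 347 positive and 652 negative cells 0 of 9 genes were called, against 0.0392% of genes higher and 0.0392% lower. The astrocyte genes summed to a median of 0 CPM in Gad-positive and 13.6 CPM in Gad-negative cells, higher in 2 of 16 plates, and their part in the values was not tested. Ret had a median log2 ratio of 1.67 and was higher in 15 of 16 plates, failing only in SER67, without which it was called (1.84). It was expressed in 50.1% (44.8 to 55.5%) of positive and 25.0% (21.7 to 28.5%) of negative cells. Most Trh-positive cells, 126 of 138, also had Gad, and without Trh-positive cells the median for Ret was 1.51. Kit was higher in 5 of 5 pDR plates (median 1.36, 1.15 to 2.49) and in 6 of 11 combined plates (0.09, -1.34 to 1.55). Ntrk2 and Ntrk3 were each higher in 14 of 16 plates (0.26 and 0.41), and Igf1r was lower in 15 of 16 (-0.53).

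With Slc17a8, too, 0 of 9 genes were called in 16 plates with 649 positive and 350 negative cells, against 0.0549% of genes higher and 0.0392% lower. Met had a median log2 ratio of 0.64, with 10 plates higher and 2 lower, and was found in 14.8% of positive and 6.29% of negative cells. The astrocyte genes were higher in 14 of 16 plates (median 13.4 against 0 CPM), and their part in the values was not tested. Ntrk3 (-0.51) and Ntrk2 (-0.22) were lower in 15 of 16 plates each, and Igf1r was higher in 12 of 16 (0.34). Kit was lower in 5 of 5 pDR plates (-0.75) and higher in 7 of 11 combined plates (0.19). Ret was higher in 8 plates and lower in 8 (-0.06).

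When cells were put into exclusive classes by these markers, in an order chosen after the values were seen (Zeb2, then Irx2, then Trh, then Gad and Slc17a8), the shares of Ret and Kit differed several-fold between classes. Ret was found in 75.0% of Trh cells, 55.2% of cells with Gad and Slc17a8, 38.2% with Slc17a8 alone, 35.8% with Gad alone, 12.7% of Zeb2 cells, 11.3% of Irx2 cells and 9.33% of the 75 cells with no marker. Kit was found in 93.9% of Trh cells and 90.7% of Zeb2 cells, but in 8.81% of Irx2 cells and 13.3% of cells with no marker. Gfra1 was in at least 98.7% of every class except Zeb2, where it was in 34.0%. Erbb4 was found in 1.33% of cells with no marker and 2.67% of Zeb2 cells. In Trh cells Erbb4 was at 36.1% (26.6 to 46.5%) in the pDR and 11.4% (3.20 to 26.7%) in the combined dissection, where cells with Gad alone were at 30.0% and those with Gad and Slc17a8 at 27.8%.

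**Figure D4:**
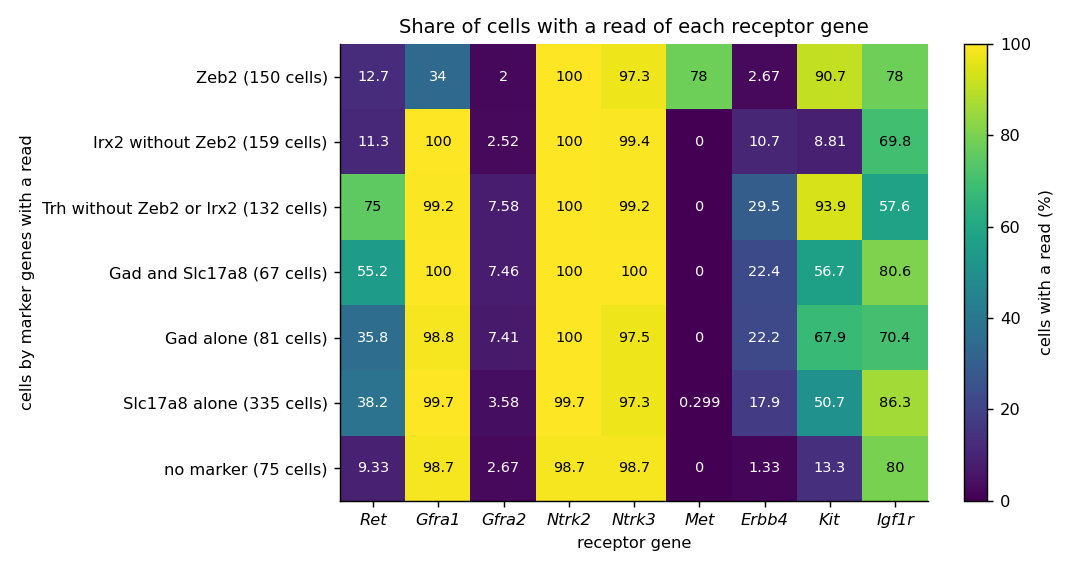
Share (%) of cells with a read of each receptor gene (columns) in 7 exclusive classes of cells by marker genes (rows, with cell numbers) over both dissections. Gfra1 is low in the Zeb2 class alone (34.0%), Met is at 78.0% there and at most 0.299% elsewhere, and Kit is high in the Trh and Zeb2 classes and low in the Irx2 and no-marker classes.

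The dissections differed in the makeup of these classes, and Ret and Kit were also compared within a class. Zeb2 and Irx2 cells made up 1.03% and 3.45% of pDR cells but 20.7% and 21.0% of the combined dissection, while Trh cells made up 33.4% and 4.94%. The share of cells with Ret was 76.3% (66.6 to 84.3%) in the pDR and 71.4% (53.7 to 85.4%) in the combined dissection for Trh cells. It was 58.1% (39.1 to 75.5%) and 52.8% (35.5 to 69.6%) for cells with Gad and Slc17a8, and 36.7% and 38.7% for cells with Slc17a8 alone. These intervals are wide and cover counting of cells only, so their overlap does not show that the dissections are alike. Mean Ret in Trh cells was 82.2 CPM in the pDR and 44.3 CPM in the combined dissection. In cells with Gad alone the pooled mean was 20.3 and 49.0 CPM over 51 and 30 cells. Plates with at least 5 such cells did not show this order. The 4 such pDR plates were at 7.98 to 54.7 CPM (median 9.11 CPM), and the 2 combined plates at 0 and 9.19 CPM. Without Zeb2-positive and Irx2-positive cells the log2 ratio of Ret between dissections was 1.25 and still called, that of Met was 0.01, and Kit passed the rule at 1.40. Kit was expressed in 80.4% (66.9 to 90.2%) of pDR cells with Gad alone and in 46.7% (28.3 to 65.7%) of such cells of the combined dissection, and in 71.0% and 44.4% of cells with Gad and Slc17a8, but in 49.4% and 51.2% of cells with Slc17a8 alone. What part the makeup of cells has in the differences between dissections was not tested.

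**Figure D5:**
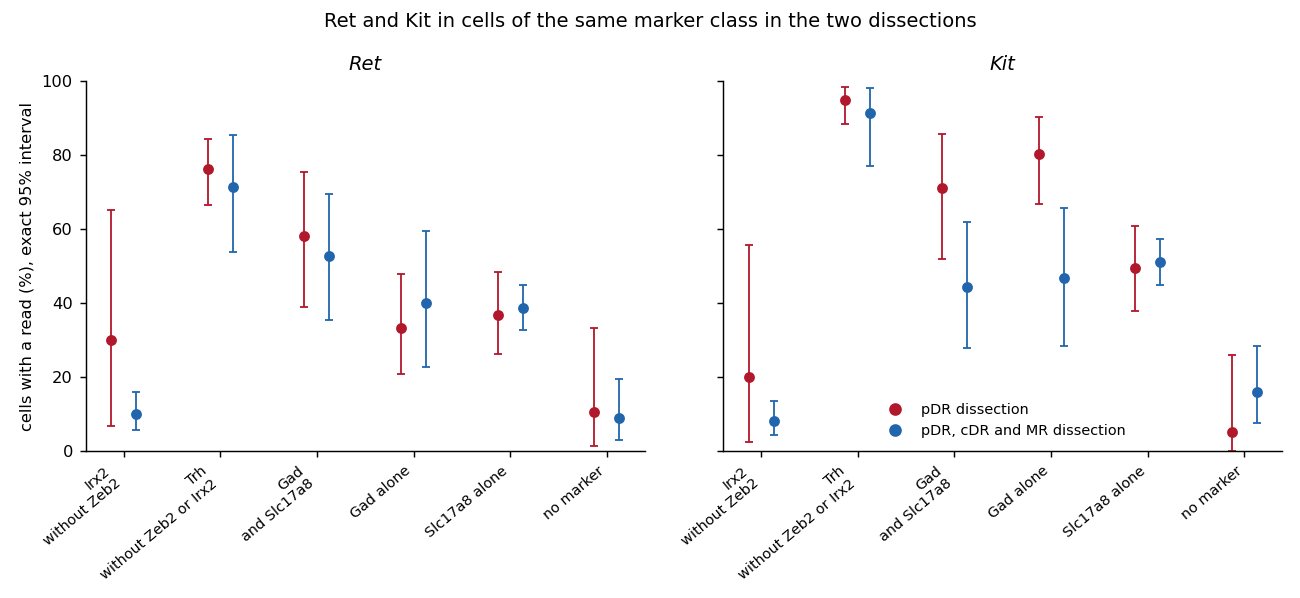
Share (%) of cells with a read of Ret (left) and Kit (right) in cells of the same marker class in the pDR dissection and in the pDR, cDR and MR dissection, with exact 95% intervals; the Zeb2 class is left out because it had 3 pDR cells. Intervals of the Ret share overlap in each class shown, several of them wide (Irx2 has 10 pDR cells), and cover counting of cells only. Kit is higher in pDR cells with Gad alone (80.4% against 46.7%) and with Gad and Slc17a8 (71.0% against 44.4%).

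By the correlation of ln(CPM+1) over the 999 cells, among genes with a mean over 10 CPM, the genes most like each receptor gene were sought. Ret was most like Gpc5, a glypican (r = 0.62), Nptx1, a neuronal pentraxin (0.52), and Col25a1, a membrane collagen (0.51). Gpc5 was also nearest to Erbb4 (0.54), followed by the protocadherin Pcdh11x (0.51) and Tent5a (0.50). Gfra1 had the closest neighbours of all 9, Pitpnc1 (0.76), the ion channel gene Asic2 (0.74) and Chn2 (0.70). Met was most like Pter (0.64), C1ql3, a secreted complement-like synaptic protein (0.63), and the chemokine gene Cxcl12 (0.61), and C1ql3 was also the gene nearest to Ntrk2 (0.41). The marker Zeb2, with a mean of 8.57 CPM, fell under the limit of 10 CPM, and its r was 0.84 with Met and -0.83 with Gfra1. Kit was nearest to Nbl1, a secreted antagonist of bone morphogenetic proteins (0.54), Mcub (0.53) and Cpne8 (0.49), and Ntrk3 to Nxph4 (0.47), Cplx2 (0.42) and Gch1 (0.41). Gfra2 and Igf1r had no gene at r = 0.4, the highest being Cnr1 (0.24) and Gm47033 (0.21). Cells share plates and vary in depth, and these values describe likeness only.

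Most ligand genes of these receptors had reads in few of the cells or in none, with neuregulins and a few others as exceptions. Of 19 ligand genes listed, 12 had a read in at least 3 cells and 5 had a mean of at least 1 CPM. Between the dissections 0 were called, against 1.84% of all genes tested called higher in the pDR and 1.1% lower. Shares this low leave few calls to be found in so short a list. Nrg1 had a read in 889 cells (mean 20.8 CPM), Hbegf, an EGF-family ligand that also binds ErbB4, in 766 (23.2 CPM) and Nrg3 in 659 (8.20 CPM). Nrg2 was read in 223 cells and Nrg4 in 150, both under 1 CPM on average. Bdnf, the TrkB ligand gene, was read in 129 cells, 22.4% of pDR cells and 9.03% of the combined dissection (log2 ratio 0.66, plates overlapping), and Artn, of the GDNF family, in 115. Btc was read in 57 cells, Nrtn in 23, Hgf and Pspn in 7 each, Ntf3 in 3, Gdnf and Ereg in 2 each, and Kitl, Igf1 and Ntf5 in 1 each. Igf2 had no read, which allows at most 0.300% of cells. In Zeb2-positive cells Hbegf was lower in 11 of 11 plates and called (-1.11, 11.0 against 25.8 CPM), against 1.79% of all genes tested called lower. With the other markers 0 ligand genes were called, where at most 0.478% of all genes tested were called in either direction. These counts of 0 thus do not set the ligand genes apart. Bdnf came close with Trh, being expressed in 44.0% of Trh-positive and 8.64% of Trh-negative cells and higher in 9 of 10 plates (1.92). Bdnf is singled out for Trh after its values were seen.

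Other receptor and partner genes were called with Trh and Zeb2 alone among the markers. For reference, 0.419% of all genes tested were called higher and 0.478% lower with Trh, and 0.748% and 1.79% with Zeb2. In Trh-positive cells 1 of 11 GDNF and neurotrophin partners was called higher, Ngfr, the pan-neurotrophin receptor gene (1.60, 10 of 10 plates). Of 35 other receptor tyrosine kinase genes tested, 1 was higher, Fgfr1 (1.14), and 3 were lower, Epha6 (-2.28), Alk (-1.88) and Ror2 (-1.10). In Zeb2-positive cells 2 partners were lower, Sorcs1 (-3.19; 21.8% against 90.6% of cells) and Ngfr (-1.70), and of the kinases 6 were lower, with Epha7 (-3.55), Epha5 (-2.69), Ephb1 (-2.65) and Alk (-2.45) the furthest, and 1 higher, Ephb6 (1.45; 125 against 41.0 CPM). Of 13 insulin and IGF genes, Igfbp3 was higher (1.30) and Igfbp5 lower (-1.47), and of 12 feedback regulators Cblb, a ubiquitin ligase that takes receptors off the membrane, was lower (-1.37). With Gad, Slc17a8 and Irx2 0 genes of any list were called. Of all genes tested, 0.0392% were called higher and 0.0392% lower with Gad, and 0.0549% and 0.0392% with Slc17a8. With Irx2 these were 0.137% and 0.239%. Shares this low leave few calls to be found in short lists, so the counts of 0 do not set these markers apart.

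Between the dissections, the genes of these lists that were called higher in the pDR were Spry2, a feedback inhibitor of receptor tyrosine kinases (2.91; 5.72 to 21.2 CPM against 0.120 to 2.01 CPM), Braf (1.12), Fgfr1 (1.10; 46.7 to 80.3 against 19.0 to 39.7 CPM), Sorcs1 (1.07) and Egfr (1.70, with plates from 0.326 to 12.2 CPM that overlapped the others). Epha8 was called lower (-1.30). In repeats without 1 plate, added after the data were seen, Egfr was at 0.47 without SER39, Braf at 0.98 without SER39, Fgfr1 at 0.99 without SER12 and Sorcs1 at 0.93 without SER12, and these 4 were then not called. Spry2 and Epha8 were called in all 16 repeats. Braf was 1 of 32 adaptor and signalling genes, all with a mean of at least 1 CPM, a share near the 3.39% of such genes called higher. The median log2 ratio was -0.17 over these 32 and 0.50 over the 12 feedback regulators, against 0.01 over all genes tested. Egfr was the only one called of the 9 genes of the ErbB and KIT family, of which 3 had a mean of at least 1 CPM. None of the 2 ETS target genes tested, 1 of them with such a mean, was called in any comparison. Between dissections 1.84% of all genes tested were called higher in the pDR and 1.1% lower.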

How the data were processed

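Single tdTomato-positive neurons were sorted and made into Smart-seq2 libraries. The authors aligned reads to mm10 with STAR 2.6.1a, counted reads on genes with HTSeq 0.11.2 (strand ignored), took out Y-linked genes and deposited CPM on a linear scale. Dividing each cell by its lowest value gave whole reads, within 0.001, for 100% of values above 0. With 1 sample a group and no animal named, no count test was run. The table holds 999 of 1536 labelled cells, and 0 of its columns were left unused. All 999 passed the study's minimums of 50000 reads and 300 genes. A gene was expressed with at least 1 read. Ratios were taken on mean CPM plus 1, over 25522 genes with a read in at least 3 cells. Depth per cell was 96834 to 2780443 reads, which limits low genes most.

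The genes, markers and lists were chosen with earlier results of these data known. Named were the 9 genes, the markers, up to 3 genes most correlated with each (r of at least 0.4, else the highest), the ligands (1 of the list is not reported here), and called genes of other lists, at most 4 a comparison. Alternatives were other thresholds for expression, pseudocounts, scalings, cell minimums, thinning to 250000 reads, other set sizes and each plate left out. Python 3.11.15, NumPy 2.4.6, SciPy 1.17.1, pandas 2.3.3 and matplotlib 3.10.9 were used. Promoter windows are from RefSeq (GRCm38.p6) and gene positions from GENCODE M21.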

Additional observations from a re-analysis of the deposited data

Results flagged for a closer look

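The 5 pDR plates were examined for a plate far from the other 4, in the share of cells and the mean level of each of the 9 genes (18 sets of 5 values), and all 4 values that stood apart came from plate SER12, which held 93 cells, the most of any plate. For normally distributed values chance alone sets apart about 1 in 20 such sets, and these sets are not independent. For Met, which was at 0 in the other 4 plates, any positive cell would have set SER12 apart in both measures. Kit was expressed in 78.5% of its cells, against 62.8 to 65.9% in the other 4 plates. Gfra2 had a mean of 3.98 CPM there, against 0 to 0.993 CPM in the others. Met was read in 1.08% of its cells, at a mean of 0.0455 CPM, and in 0 cells of the other 4, which is 1 cell with 2 reads. No marker had all pDR plates on one side of 0 and all combined plates on the other for any receptor gene, among 27 pairs of marker and gene measured in both dissections.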

How the results depend on the processing

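No paired analysis was possible because the labels give cells no replicate numbers that dissections share; marker sets were compared within plates. Of the 9 genes, 5 were in over 50% of cells, and 3 at 10 CPM. The share of cells with at least 5 of the genes, 60.8%, was 47.7% at 5 reads, 39.0% at 10 CPM and 54.4% thinned to 250000 reads, and 58.5 to 61.6% with a plate left out. Between dissections 2 genes were called, and 1 with 10 CPM added, where Met was at -0.58, and 2 to 3 with a plate left out. By marker 7 calls were made, 11 with at least 10 cells in each set (fewer plates), and 7 to 8 with a plate left out. With 10 CPM added, Ret with Zeb2 (-0.77) and with Irx2 (-0.78) was no longer called, nor on the mean of the log value. Met between dissections was at a log2 ratio of 0.0135 without Zeb2-positive and Irx2-positive cells. All its reads in the combined dissection were in Zeb2-positive cells. The 5 genes in over 50% of cells were 5 in every repeat with a plate left out. Other settings left each count within 1.5 times. The labels give no animals, so spread between animals is unknown.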
